A study of Mus musculus with 24 samples.

Results

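Gpr101, Zcchc12, Hap1, Baiap3, Hdc, Adgrg2 and AW551984 are 7 of the 48709 genes counted in the cerebral cortex and blood of mouse neonates. The dams of the neonates inhaled nano-sized particulate matter (nPM) or served as controls. The labels call the controls unexposed, and the methods text has them in filtered air in the same kind of chamber. The 7 genes were chosen by their higher counts in the nPM cortex libraries, so their nPM differences in cortex are given as a description with no test. They were found by their symbols in the gene annotation of the count table, and all 7 passed the filter of at least 1 count in every cortex library.

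The study held 12 cortex and 12 blood libraries, with 3 pups for each sex and exposure in each tissue, from C57BL/6J mice as the labels name them (the methods text has C57BL/6NJ). Control and nPM pups were labelled 3 to 5 days old, and the treatment protocol names day 5. The dams of the nPM pups were exposed for 5 h a day on 3 days a week from gestational day 2 until birth, at a labelled concentration of 300 mg/m3 (the methods text has the same figure in micrograms). By the methods text the 3 pups of each sex and exposure came from different litters. The exposure was given to the dams and the labels do not tie pups to litters, so the p-values below measure the spread between pups. Cortex libraries held 22301409 to 33804371 counts with RNA integrity numbers (RIN) of 9.4 to 9.9, and blood libraries 13595647 to 21895536 counts with RIN of 7.5 to 9.3. The levels of 2 sex-linked genes fitted the labelled sex in 12 of 12 cortex libraries.

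Several of the 7 genes are known mainly from the hypothalamus and neighbouring nuclei, which lie beneath the cortex and release peptides, amines and hormones. Gpr101 encodes an orphan G protein-coupled receptor found in the hypothalamus, and duplication of its human counterpart causes pituitary overgrowth. Hap1 encodes huntingtin-associated protein, a trafficking adaptor that forms inclusions called stigmoid bodies in hypothalamic neurons. Baiap3 belongs to the Munc13 family and acts in the traffic of dense core vesicles, which carry neuropeptides. Hdc encodes histidine decarboxylase, which makes histamine in hypothalamic tuberomammillary neurons and in mast cells. Zcchc12 encodes a zinc finger cofactor of bone morphogenetic protein signalling, and Adgrg2 an adhesion G protein-coupled receptor best known from the male reproductive ducts. AW551984 is a protein-coding gene still named by a clone code, and no role is given for it here. No subcortical region was sampled, so the word subcortical rests on this background and was not measured here.

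The genes lie on 5 chromosomes of mm10. Gpr101 (ENSMUSG00000036357, chrX:57496668-57503757), Zcchc12 (ENSMUSG00000036699, chrX:36195904-36199158) and Adgrg2 (ENSMUSG00000031298, chrX:160390690-160498070) are X-linked, that is 3 of 7, where 3.39% of the 20857 genes tested in cortex are on X. Hap1 (ENSMUSG00000006930, chr11:100347327-100356128), Baiap3 (ENSMUSG00000047507, chr17:25242659-25256364), Hdc (ENSMUSG00000027360, chr2:126593667-126619299) and AW551984 (ENSMUSG00000038112, chr9:39587396-39604403) are autosomal. In the annotation Hap1 overlaps Gm20394 on the same strand, Baiap3 overlaps Tsr3 on the opposite strand and Mir3547 on its own, and Adgrg2 overlaps Gm15241 on the opposite strand. Strandedness is not stated, so reads in those overlaps may belong to either gene.

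RefSeq start-site windows, each with 250 bases before and 50 bases after a transcript start, were found for all 7 genes, 10 windows in all because Hap1 and AW551984 have several starts. Shown here in lower case are those of Gpr101 and Hdc, the pair whose nPM libraries all lay above the controls, and of Hap1 and Baiap3, the pair most alike across libraries. They come from RefSeq on GRCm38.p6, each on the gene's own minus strand from 5′ to 3′, at chrX:57503708-57504007, chr2:126618629-126618928, chr11:100356079-100356378 and chr17:25256315-25256614. Capitals mark a TATAAA match.
Gpr101: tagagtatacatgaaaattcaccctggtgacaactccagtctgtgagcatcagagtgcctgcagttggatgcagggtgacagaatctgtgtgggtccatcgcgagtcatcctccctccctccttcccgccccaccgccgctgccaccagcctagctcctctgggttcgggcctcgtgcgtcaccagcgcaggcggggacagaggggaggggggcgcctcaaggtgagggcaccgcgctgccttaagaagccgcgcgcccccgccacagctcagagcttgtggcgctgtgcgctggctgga
Hdc: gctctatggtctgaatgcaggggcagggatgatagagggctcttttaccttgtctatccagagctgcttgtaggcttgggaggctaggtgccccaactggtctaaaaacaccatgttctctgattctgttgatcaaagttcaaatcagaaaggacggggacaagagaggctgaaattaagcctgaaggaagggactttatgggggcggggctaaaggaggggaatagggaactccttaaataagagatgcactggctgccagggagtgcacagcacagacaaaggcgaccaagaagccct
Hap1: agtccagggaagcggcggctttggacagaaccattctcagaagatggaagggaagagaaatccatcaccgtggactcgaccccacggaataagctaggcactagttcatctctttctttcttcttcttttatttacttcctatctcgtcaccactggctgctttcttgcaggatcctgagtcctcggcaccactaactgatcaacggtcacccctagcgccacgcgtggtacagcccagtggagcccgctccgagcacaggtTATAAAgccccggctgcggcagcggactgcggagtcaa
Baiap3: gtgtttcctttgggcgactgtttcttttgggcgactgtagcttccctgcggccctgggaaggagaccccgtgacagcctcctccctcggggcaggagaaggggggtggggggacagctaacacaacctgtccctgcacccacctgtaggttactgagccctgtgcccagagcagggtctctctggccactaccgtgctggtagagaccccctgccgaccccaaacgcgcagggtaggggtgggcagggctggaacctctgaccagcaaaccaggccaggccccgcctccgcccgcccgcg

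Short patterns were searched on both strands in these windows, and no pattern holds another. TATAAA, the TATA box, was found in Hap1, starting 12 bases after the transcript start in the window shown and 25 bases after it in the window of the other start, and is held by 13.6% of the 32851 windows in the RefSeq table. CAAGTG, a core bound by NKX2 homeodomain factors, was found in Adgrg2 and in 1 of the AW551984 windows and is also held by 13.6%. AGGTCA, bound by nuclear receptors, is in none of the 10 windows and in 16.3% of all. TGACGTCA, the cAMP response element, is in none of the 10 and in 1.79% of all. The Gpr101, Hdc, Baiap3 and Zcchc12 windows hold none of the patterns. The windows differed in base composition, from 43.3% G and C in an AW551984 window and 50.7% in Hdc to 74% in Adgrg2, against a median of 52.7% over all windows. CpG pairs ran from 2 in an AW551984 window and 3 in Hdc to 30 in Adgrg2, with 19 in Gpr101 and a median of 7 over all windows. No pattern searched was found in all 7 genes.

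Levels between genes were compared per length, as RPKM (scaled counts divided by the deposited gene length and by the library total). In control cortex, Zcchc12 had a mean of 31 RPKM, Hap1 14.3, AW551984 6.65, Baiap3 1.75, Adgrg2 0.853, Gpr101 0.45 and Hdc 0.188. In nPM cortex the means were 41.3, 19.2, 9.06, 2.74, 1.21, 0.966 and 0.311 RPKM in that order. The order of the genes was therefore the same in both exposures, with Zcchc12 and Hap1 well expressed and Hdc near the low end.

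The receptor Gpr101 showed the largest nPM difference of the 7 on the log2 scale. CPM, its count scaled to a common library total with TMM factors, had a lowest, median and highest value of 1.2, 2.6 and 3.51 in the 6 control libraries and of 3.89, 5.23 and 6.77 in the 6 nPM libraries. Every nPM library lay above every control, with control male 1 the lowest and nPM female 3 the highest. The mean was 2.43 ± 0.819 CPM (SD, n = 6) in controls and 5.23 ± 1.12 CPM (SD, n = 6) in nPM, a log2 difference of 1.08 (SE 0.162), or 2.12-fold, in the edgeR fit with sex and RIN. It ranked 48 among the 20857 tested genes by log2 difference. These levels rest on 33 to 173 counts per library, and in bulk tissue a larger share of a cell type and more RNA per cell cannot be told apart. Leaving out 1 library at a time moved the log2 difference from 0.956 (without control male 1) to 1.18 (without control male 3).

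Hdc was the least abundant gene of the 7. Its lowest, median and highest values were 0.874, 1.21 and 1.41 CPM in controls and 1.58, 2.05 and 2.49 CPM in nPM, again with no overlap. The means were 1.2 ± 0.191 CPM (SD, n = 6) and 1.99 ± 0.345 CPM (SD, n = 6), a log2 difference of 0.71 (SE 0.165), from only 24 to 70 counts per library. Gpr101 and Hdc were thus 2 of the 7 with fully separate groups. Of all tested genes, 0.129% had every nPM library above every control, but the same contrast chose the genes, so nothing is read from this share.

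For the adaptor Hap1 the groups overlapped widely, from 36.9 to 73.3 CPM (median 51.9) in controls and from 50.5 to 98.9 CPM (median 70.5) in nPM. Control female 1, at 73.3 CPM, was above 4 of the 6 nPM libraries. The log2 difference was 0.41 (SE 0.107), from means of 53.8 ± 13 and 72.2 ± 16 CPM (SD, n = 6 each). The Munc13 relative Baiap3 had values of 6.08, 8.59 and 14 CPM (lowest, median and highest) in controls and 9.64, 14.2 and 17.9 CPM in nPM. Control female 1 was again the highest control, and only 3 nPM libraries lay above it. The Baiap3 log2 difference was 0.65 (SE 0.121), from 8.97 ± 2.83 to 14 ± 2.94 CPM (SD, n = 6 each).

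Zcchc12, the signalling cofactor, ran from 61.3 to 90.2 CPM (median 67.9) in controls and from 83 to 115 CPM (median 89.3) in nPM. In 5 of 6 controls it was below every nPM library, and control female 1 was the exception. The log2 difference was 0.40 (SE 0.0586), from 70.6 ± 10.3 to 94.3 ± 12.6 CPM (SD, n = 6 each). The receptor Adgrg2 ran from 3.17 to 5.03 CPM (median 4.87) in controls and from 5.02 to 7.55 CPM (median 6.57) in nPM. Its groups met only at nPM male 1, which was just below the highest control, control male 2. The log2 difference was 0.52 (SE 0.112), from 4.5 ± 0.739 to 6.37 ± 0.971 CPM (SD, n = 6 each). AW551984 was tight in controls, from 36.6 to 46.6 CPM (median 39.7), and spread more widely in nPM, from 39.8 to 73.1 CPM (median 55.1). Here too nPM male 1 was the only nPM library among the controls. The AW551984 log2 difference was 0.43 (SE 0.0916), from 40.5 ± 3.48 to 55.1 ± 11.1 CPM (SD, n = 6 each).

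**Figure D1:**
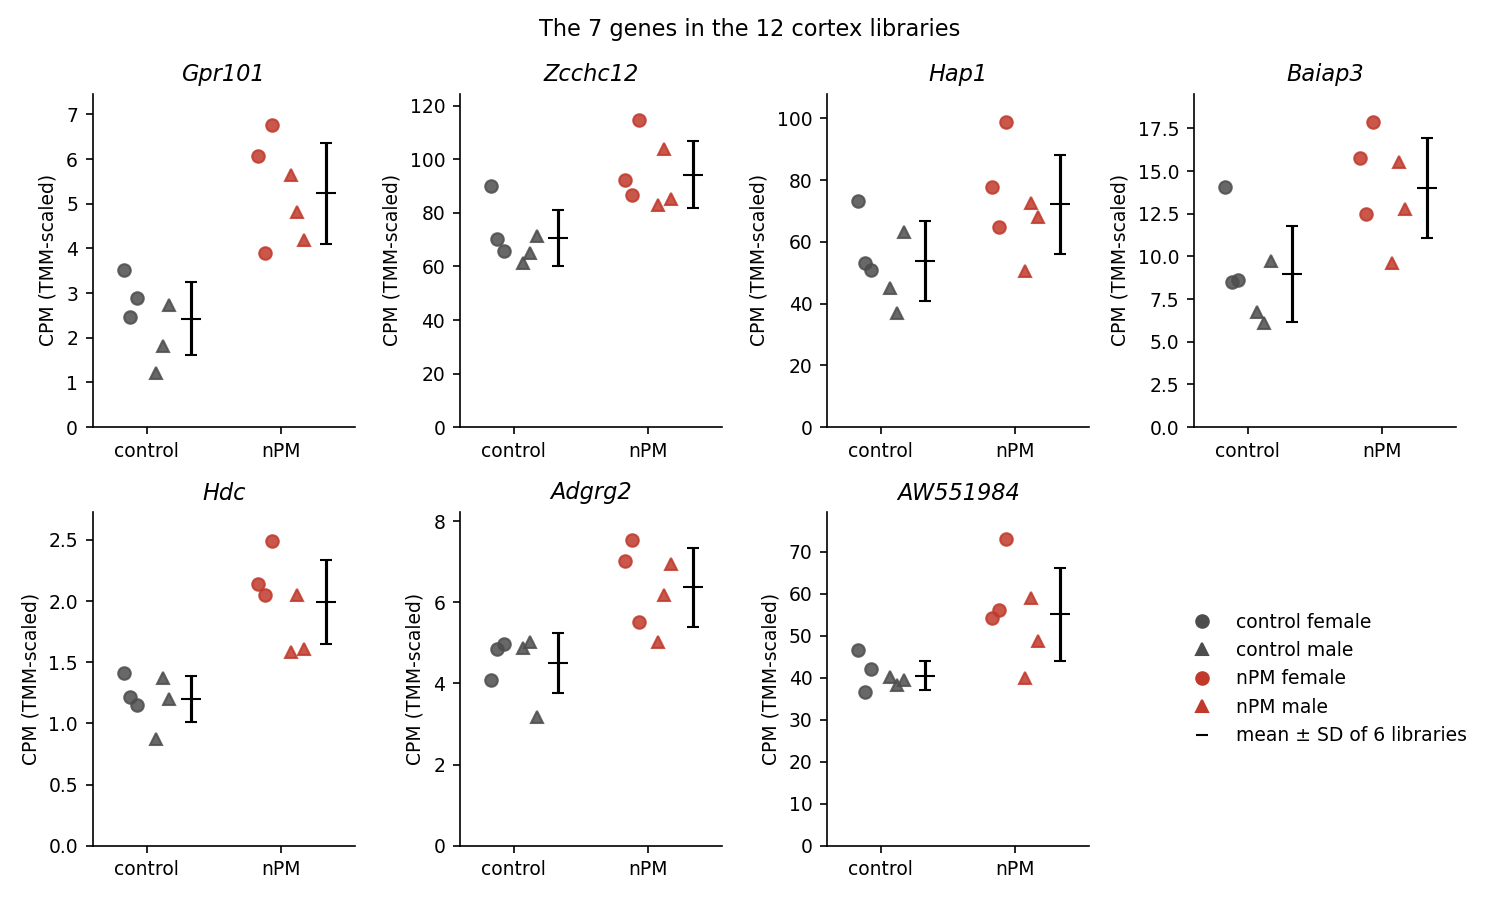
Each panel plots CPM (vertical axis, TMM-scaled) for 1 gene in the 6 control (grey) and 6 nPM (red) cortex libraries, with circles for females, triangles for males and bars for the mean ± SD of 6. Gpr101 and Hdc separate fully, and in the other panels 1 or more libraries of the exposures overlap.

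The median log2 difference of the 7 genes was 0.518, where the median of all tested genes was -0.00242 and 48.9% of them were above 0. All 7 were above 0 in females and in males when the fit had an exposure-by-sex term. Female differences ran from 0.44 (Zcchc12) to 0.99 (Gpr101), and male differences from 0.27 (AW551984) to 1.19 (Gpr101). Within sequencing lanes, mean log2 CPM differed by 0.36 to 1.26 in lane 2 (8 libraries) and by 0.53 to 0.92 in lane 3 (4 libraries). The choice of genes fixes the pooled direction, so these parts of it are given as values only. Among the tested X-linked genes, 60.3% had a log2 difference above 0.

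**Figure D2:**
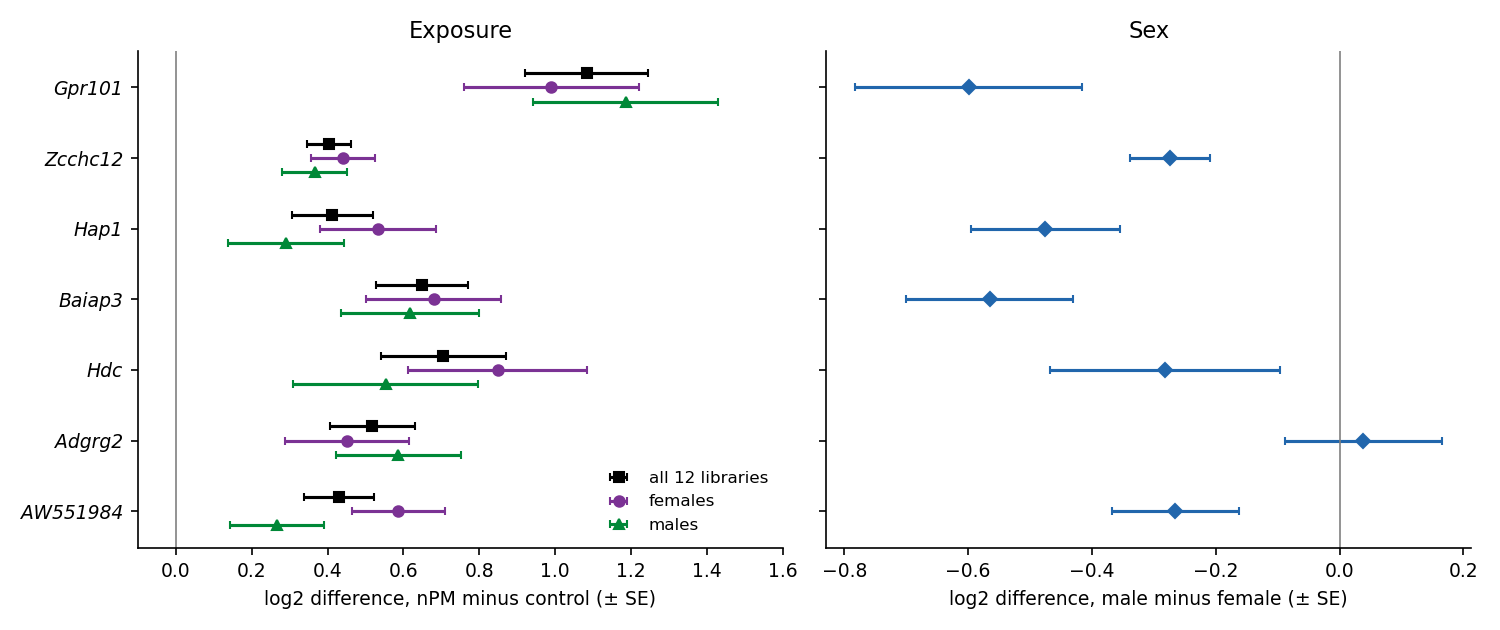
The left panel plots the log2 difference between nPM and control (horizontal axis, with SE) for all 12 cortex libraries (black squares), females (purple circles) and males (green triangles), and the right panel the log2 difference between males and females (blue diamonds, with SE). All exposure values are above 0, from 0.27 to 1.19, and 6 of 7 sex values are below 0.

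Whether nPM acted unequally in the sexes was tested with the exposure-by-sex term, which the choice of genes did not use. None of the 7 genes passed an adjusted p of 0.05 in edgeR, as was the case for all genes (0% called), and none had an unadjusted p under 0.05, where 9.68% of all genes did. The largest interaction was that of AW551984, whose nPM difference was 0.59 (SE 0.122) in females and 0.27 (SE 0.124) in males, with a difference of -0.32 (SE 0.177) and an adjusted p of 0.589 in edgeR. For Gpr101 the interaction was 0.20 (SE 0.341) and for Hdc -0.30 (SE 0.348), with adjusted p of 0.894 and 0.828 in edgeR. The SEs of the 7 interactions ran from 0.124 to 0.348 on the log2 scale.

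Sex itself was a second contrast that the choice of genes did not use, and 6 of the 7 genes had lower fitted values in males. None passed an adjusted p of 0.05 in edgeR (adjusted p of 0.521 to 0.967), where 0.0336% of all genes did. At an unadjusted p under 0.05 it was 5 of 7, all lower in males, where 6.09% of all genes were called. Hap1 and Baiap3, both among them, had a Pearson r of 0.96 over the same libraries with exposure means taken out. The 5 are therefore not separate outcomes. Baiap3 was lower in males by a log2 value of -0.57 (SE 0.135) with an adjusted p of 0.521 in edgeR. In control cortex it averaged 10.4 ± 3.15 CPM in females and 7.53 ± 1.96 CPM in males (SD, n = 3 each), and in nPM cortex 15.4 ± 2.72 and 12.6 ± 2.96 CPM, so the ranges of the sexes met in both.

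Zcchc12 differed between males and females by -0.27 (SE 0.0653, edgeR adjusted p = 0.521) and Hap1 by -0.48 (SE 0.12, edgeR adjusted p = 0.696). Gpr101 had -0.60 (SE 0.183, edgeR adjusted p = 0.797) and AW551984 -0.27 (SE 0.102, edgeR adjusted p = 0.797). Hdc had a value of -0.28 (SE 0.186, edgeR adjusted p = 0.82), and Adgrg2 was the exception to the direction at 0.04 (SE 0.127, edgeR adjusted p = 0.967). RIN moved with sex, from 9.4 to 9.9 in females (median 9.7) and from 9.4 to 9.7 in males (median 9.5). Without RIN in the fit the values shrank to -0.37 for Gpr101, -0.15 for Zcchc12, -0.31 for Hap1 and -0.36 for Baiap3, and Adgrg2 turned to -0.12. The part of RIN in the sex difference was not tested beyond this.

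The 7 genes were then related to each other across the 12 cortex libraries. Log2 CPM was centred on the mean of each exposure, which takes out the difference that chose the genes, and p came from 100000 permutations within exposure (two-sided). Of the 21 pairs, 16 had a Pearson r above 0 and the median r was 0.627, while the median over all pairs of tested genes was -0.002. At an unadjusted permutation p under 0.05 there were 12 of 21 pairs, where 6.33% of the 145992 pairs of 1 of the 7 genes and a tested gene were called. With Spearman's rho it was also 12 of 21. None passed an adjusted permutation p of 0.05 over those 145992 pairs (0% called, lowest adjusted p 0.365). With this number of permutations 30 pairs at the smallest possible p of 1e-05 would be needed to reach it, and 4 were there.

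Hap1 and Baiap3 were the most alike, with r = 0.96 (permutation p = 1e-05, the smallest these permutations can give, adjusted p = 0.365) and rho = 0.958 (permutation p = 5e-05) over 12 libraries. Their r was 0.965 in the 6 controls, 0.963 in the 6 nPM libraries, 0.983 in lane 2 and 0.956 without the 2 libraries farthest from the Hap1 median. Libraries high in the adaptor Hap1 were thus high in the vesicle gene Baiap3 in each exposure, control female 1 and nPM female 3 at the top and control male 2 and nPM male 1 at the bottom. Lane 3 holds 4 libraries, too few for a value of its own.

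Zcchc12 followed the same libraries. Its r with Baiap3 was 0.89 (permutation p = 8e-05, adjusted p = 0.438, rho = 0.881 with permutation p = 0.00132) and with Hap1 0.84 (permutation p = 0.00095, adjusted p = 0.6, rho = 0.874 with permutation p = 0.00089). Without the 2 libraries farthest from the Zcchc12 median these were 0.774 and 0.651. These 3 pairs reached an r of 0.8, as 0.453% of all pairs of tested genes did.

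AW551984 was related to Zcchc12 and to Hap1 with r = 0.747 each (permutation p = 0.0032 and 0.00582, adjusted p = 0.703 and 0.715) and to Baiap3 with r = 0.722 (permutation p = 0.00262, adjusted p = 0.698). Within exposures its pairs were unequal, as with Hdc, where r was 0.225 in controls and 0.923 in nPM libraries. Hdc and Zcchc12 had r = 0.741 (permutation p = 0.0135, adjusted p = 0.739), 0.658 in controls and 0.827 in nPM. Gpr101 had r from 0.627 (Hap1) to 0.695 (Baiap3) with the 3 genes of the tightest pairs, from 0.746 to 0.828 in controls and from 0.4 to 0.55 in nPM libraries. Gpr101 and AW551984 were the least alike of the pairs without Adgrg2, with r = 0.282 (permutation p = 0.284, adjusted p = 0.914).

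Adgrg2 stood apart from the other 6 genes. Its 6 pairs had r from -0.493 (Gpr101, permutation p = 0.138, adjusted p = 0.859) to 0.0353 (AW551984), and none had an unadjusted permutation p under 0.05. The 15 pairs without it had r from 0.282 to 0.96 with a median of 0.695, and they held all 12 pairs under that p. Control male 3 was the lowest of all 12 libraries in Adgrg2, at 3.17 CPM, while its Hap1 level of 63.3 CPM was second among the controls.

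**Figure D3:**
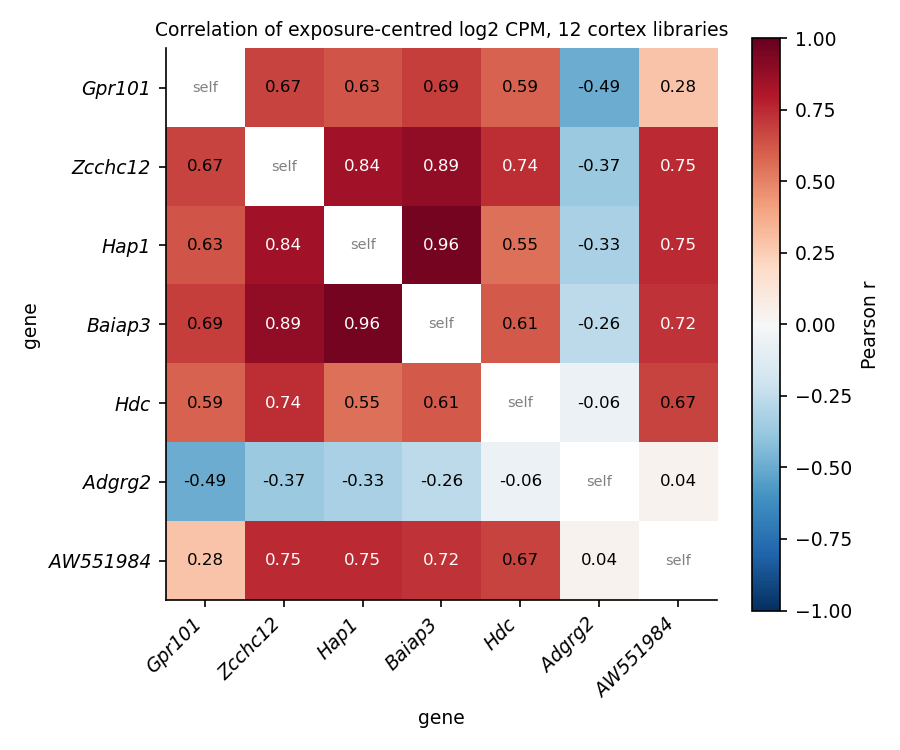
The matrix gives Pearson r between each pair of the 7 genes over 12 cortex libraries, from log2 CPM centred on exposure means, on a colour scale from -1 (blue) to 1 (red). Hap1, Baiap3 and Zcchc12 share values of 0.84 to 0.96, and the Adgrg2 row lies between -0.493 and 0.0353.

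Over all 21 pairs the median r was 0.599 within controls (15 pairs above 0), 0.55 within nPM libraries (19 above 0), 0.582 in lane 2 (17 above 0) and 0.482 without the 2 farthest libraries (15 above 0). When log2 CPM was centred on sex as well as exposure the median fell to 0.54 and 8 pairs had an exact permutation p under 0.05. With RIN taken out the median was 0.663 with 14 pairs. Leaving out nPM female 3, the highest nPM library for 6 of the 7 genes, left 6 pairs with a median r of 0.545.

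**Figure D4:**
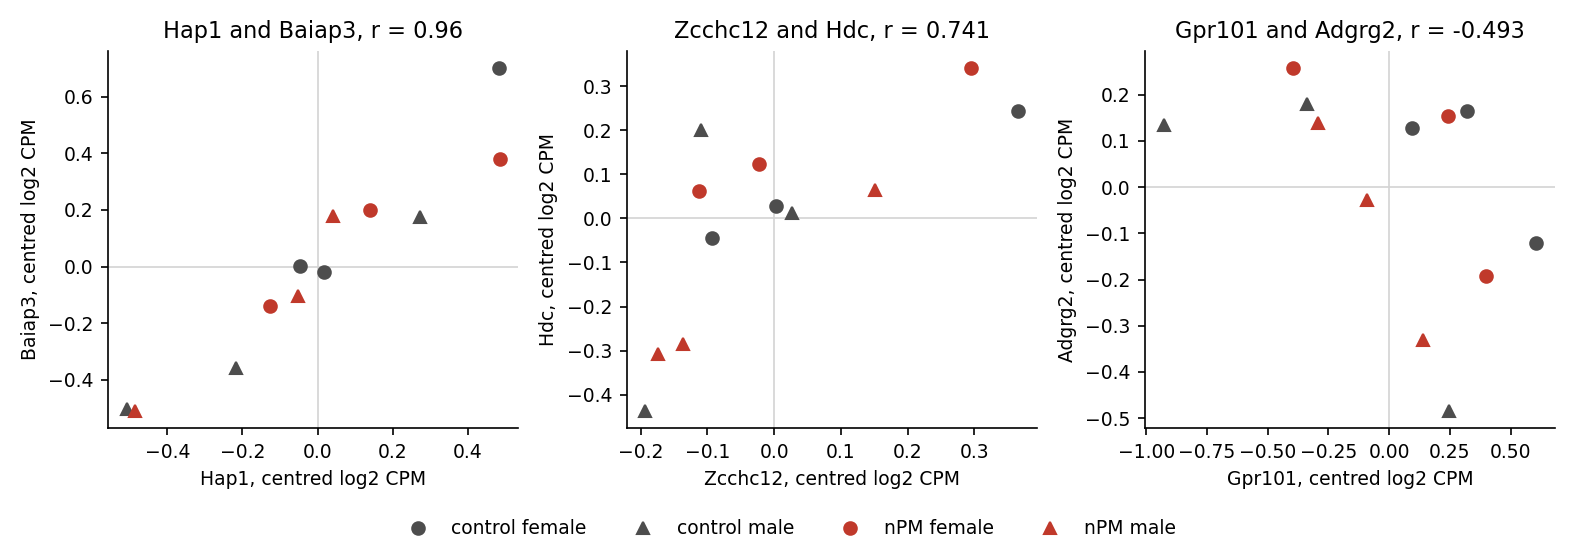
Each panel plots log2 CPM centred on exposure means of 1 gene against another in the 12 cortex libraries, for Hap1 and Baiap3 (r = 0.96), Zcchc12 and Hdc (r = 0.741) and Gpr101 and Adgrg2 (r = -0.493), with colour for exposure and shape for sex. Control and nPM points mix along the Hap1 and Baiap3 line, and males hold its lower end.

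The genes outside the 7 most like them on average were, by mean r, Peg10 (0.639), Atp11a (0.635), Sntb1 (0.634), Spc24 (0.632), Sox1ot (0.632), Nrp2 (0.623), Mus81 (0.622), Gm10605 (0.617), Sall2 (0.609) and Fbxo38 (0.606), over 12 libraries and with genes of at least 1 CPM. Peg10, an imprinted gene derived from a retroelement, had r from 0.098 to 0.825 with the 7. The closest partners of each gene differed. They were Serpinh1, Crocc2 and Gab1 for Gpr101 (r of 0.935 to 0.951), Il13ra1, Fzd2 and Slc32a1 for Zcchc12 (0.887 to 0.946) and Nfatc2, Tmem176a and Agt for Hap1 (0.906 to 0.932). Baiap3 had Agt and Nfatc2 in common with Hap1, followed by Spc24 (0.89 to 0.935). For Hdc they were Pdpn, Sox2 and Slc22a6 (0.91 to 0.953), for Adgrg2 Klhl28, Gm37738 and Ergic2 (0.884 to 0.926), and for AW551984 Gm42641 (0.882) and Dusp4 (0.836). Of these, Slc32a1 encodes the vesicular transporter of GABA and glycine, Agt angiotensinogen and Pdpn podoplanin, a surface protein of choroid plexus and meninges.

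Markers of the regions around the cortex were read in the same libraries, from 16 lists of 203 genes, 157 of them tested. At an unadjusted p under 0.005 in edgeR, 5 listed genes were higher in nPM cortex (0.35% of all tested genes were) and 1 was lower (0.264% were). None of the 157 passed an adjusted p of 0.05, as 0.0144% of all tested genes did. At an unadjusted p under 0.05, 2.73% of all genes were called higher and 2.94% lower, and the counts per list below are at that level.

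Of the hypothalamus-enriched signalling genes 5 of 19 tested were called higher and 0 lower, with a median log2 difference of 0.10. Irs4, an insulin receptor substrate, had 0.794 ± 0.233 CPM in controls and 1.79 ± 0.842 CPM in nPM (SD, n = 6 each), a log2 difference of 1.13 (SE 0.302, edgeR adjusted p = 0.635). Ecel1, a neuronal metallopeptidase, had 2.29 ± 1.18 and 4.08 ± 1.12 CPM, a log2 difference of 0.83 (SE 0.221, edgeR adjusted p = 0.635). The most abundant of the list, Npy1r and Ntsr1, differed by 0.10 (SE 0.0499) and 0.02 (SE 0.0948).

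Of 20 hypothalamic neuropeptides 11 were tested, with 1 called higher, 1 lower and a median of 0.01. Trh, the thyrotropin-releasing hormone, was lower, at 7.21 ± 0.857 CPM in controls and 5.73 ± 0.414 CPM in nPM (SD, n = 6 each), a log2 difference of -0.33 (SE 0.0967, edgeR adjusted p = 0.779). Npy and Nts, the most abundant, differed by 0.01 (SE 0.0802) and 0.25 (SE 0.106), and Nts was the gene called higher. Of 20 hypothalamic and preoptic transcription factors 7 were tested, with 3 called higher (Six3, Lhx1 and Isl1), 0 lower and a median of 0.30, and the abundant Lhx9 had a log2 difference of 0.30 (SE 0.175). Nkx2-4, Hmx2, Hmx3, Kiss1 and Galp, which mark hypothalamic cells, were at 0 counts in all 12 cortex libraries, under a floor of 3 counts, or 0.0887 to 0.135 CPM. The other untested genes of these lists were counted in some libraries and at 0 in others, so the markers were not absent. Sim1 had 0.0444 ± 0.0396 CPM in controls and 0.285 ± 0.449 CPM in nPM (SD), with at most 25 counts. Nkx2-1 had 0.273 ± 0.233 and 0.251 ± 0.162 CPM, with at most 16 counts.

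Basal forebrain cholinergic genes had 5 of 7 tested called higher and 0 lower, with a median of 0.40. Chat, which makes acetylcholine, was called at the stricter cutoff as well, from 0.31 ± 0.228 to 0.754 ± 0.234 CPM (SD, n = 6 each), a log2 difference of 1.35 (SE 0.377, edgeR adjusted p = 0.687). Slc5a7, the choline transporter, had 0.40 (SE 0.152) and Ache, the most abundant, -0.09 (SE 0.054). Thalamus markers had 4 of 11 called higher and a median of 0.14. The guidance molecule Ntng1 had 19.9 ± 3.34 and 25.4 ± 1.71 CPM, a log2 difference of 0.34 (SE 0.0886, edgeR adjusted p = 0.598), and the abundant Slc17a6 and Plekhg1 had 0.12 (SE 0.054) and 0.01 (SE 0.0833).

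Striatum markers had 2 of 12 called higher and a median of 0.21, with Pde10a, the most abundant, at 0.10 (SE 0.17). Amygdala and septum markers had 2 of 12 called higher and a median of 0.04. Of these the imprinted gene Dlk1 went from 0.093 ± 0.0763 to 0.31 ± 0.24 CPM (SD, n = 6 each), a log2 difference of 1.67 (SE 0.419, edgeR adjusted p = 0.566) at no more than 16 counts in any library, and Lypd1 and Meis2 had 0.04 (SE 0.0505) and 0.10 (SE 0.0855). Midbrain and hindbrain markers had 4 of 12 tested, 0 called and a median of -0.15, with Tph2 at -0.14 (SE 0.163) and Th at 0.50 (SE 0.395), and with Fev at 0 counts in all 12 libraries.

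Cortical excitatory neuron and layer markers went the other way, with 11 of 12 log2 differences below 0, a median of -0.08, 0 called higher and 2 lower, among them Fezf2 at -0.16 (SE 0.0552). Slc17a7 and Neurod6, the most abundant, had -0.15 (SE 0.105) and -0.05 (SE 0.0476). The presence of all 12 markers, at a summed 1286 to 1535 CPM, fits the labelled tissue. The sum was 1357 to 1535 CPM in controls (median 1438) and 1286 to 1400 CPM in nPM (median 1346).

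The summed hypothalamus-enriched list ran from 176.5 to 187.9 CPM (median 180.5) in controls and from 181.1 to 208.8 CPM (median 193.8) in nPM. Its largest parts were Npy1r and Ntsr1 (cortex means of 26.3 and 23.9 CPM). No hypothalamus was sampled, so their reads, like those of Npy (33.6 CPM), cannot be assigned to cortex or to hypothalamus. The summed thalamus list ran from 144.8 to 168.1 CPM (median 153.7) and from 156.4 to 191.7 CPM (median 169.4). The summed striatum list was much wider in controls, 195.6 to 639.4 CPM (median 414.6), than in nPM, 403.1 to 509.1 CPM (median 445.2). Choroid plexus markers, led by Ttr (log2 difference 0.43, SE 0.375) and Sostdc1 (0.17, SE 0.152), had 8 of 8 values above 0, 0 called and a median of 0.30. Their sum was 34.79 CPM in control male 1, the library lowest in Gpr101, Hdc, Zcchc12 and the striatum sum, 321.7 to 397.3 CPM in the other 5 controls and 237.9 to 512.1 CPM in the 6 nPM libraries. The medians were 350.5 CPM in the 6 controls and 407.7 CPM in nPM, and nPM male 3, at 237.9 CPM, was below those 5 controls. The part of these neighbouring tissues in the differences of the 7 genes was not tested. Without control male 1 the log2 difference was 0.956 for Gpr101, 0.374 for Zcchc12 and 0.645 for Hdc. For each of these genes that was the lowest value with 1 library left out. With every library kept the values were 1.08, 0.40 and 0.71. The median of the 7 genes was 0.568 without control male 1 and 0.518 with it. Both medians are the value of Adgrg2, which was at its highest without that library.

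**Figure D5:**
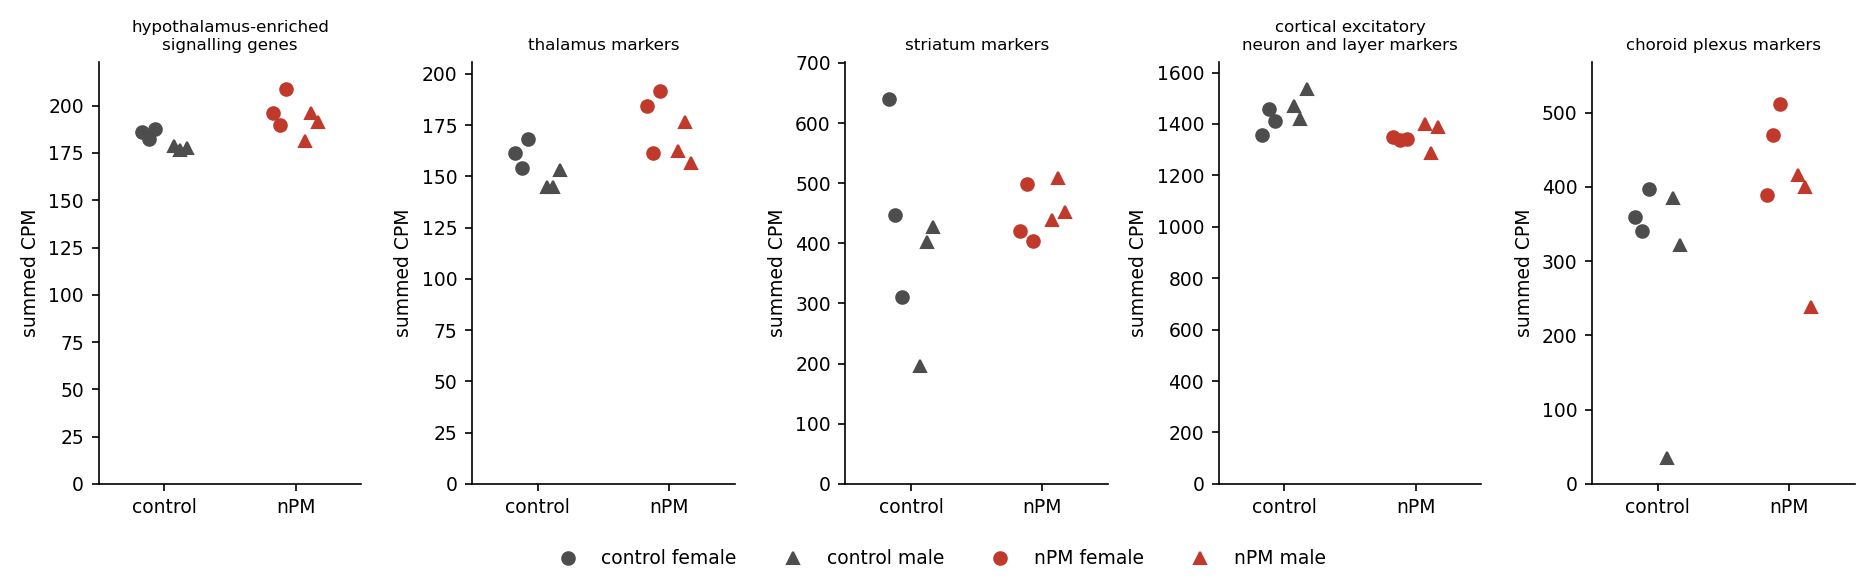
Each panel plots the summed CPM (vertical axis) of 1 marker list in the 6 control (grey) and 6 nPM (red) cortex libraries, with circles for females and triangles for males. The hypothalamus-enriched and thalamus sums have higher medians in nPM (193.8 and 169.4 CPM against 180.5 and 153.7), the cortical sum a lower one (1346 against 1438), and control male 1 is lowest in the striatum and choroid plexus panels.

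The pathway partners of the 7 genes gave few calls. Of the histamine pathway 7 of 9 genes were tested and 0 called, with a median of -0.03. Maoa and Hnmt, the most abundant of the list, differed by 0.03 (SE 0.042) and -0.05 (SE 0.0626). Of the markers of mast cells, the other source of Hdc, 2 of 10 were tested and 0 called, with a median of -0.21. Kit, which cortical neurons also express, had 0.07 (SE 0.0494) and Gata2 -0.49 (SE 0.287), the mast cell receptor gene Fcer1a was at 0 counts in all 12 libraries and the protease genes Cpa3, Mcpt4, Cma1 and Tpsb2 had at most 11 counts in any library. The summed mast cell list, nearly all of it Kit, was 57.17 to 69.42 CPM in controls and 63.13 to 69.02 CPM in nPM.

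Munc13 family and dense core vesicle genes had 16 of 16 tested, with 1 called higher, 2 lower and a median of -0.06, and Cpe and Cadps were at 0.04 (SE 0.0589) and -0.06 (SE 0.0411). Huntingtin-associated protein partners had 12 of 12 tested, 0 called and a median of -0.04, with Kif5c at 0.01 (SE 0.0406) and Kif5a at -0.07 (SE 0.0462). BMP and SMAD signalling genes had 14 of 14 tested, 0 called and a median of -0.04, with Bmpr2 at -0.06 (SE 0.0551) and Zcchc18, a relative of Zcchc12, at 0.06 (SE 0.0423). Adhesion receptors of group G other than Adgrg2 had 3 of 6 tested, 0 called and a median of 0.04, with Adgrg1 at 0.04 (SE 0.0544) and Adgrg6 at -0.20 (SE 0.132).

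As a description over the 12 libraries, the striatum list had median r of 0.59 with Hdc, 0.56 with Zcchc12, 0.55 with Gpr101, 0.485 with Baiap3, 0.353 with Hap1, 0.0771 with AW551984 and -0.236 with Adgrg2. The choroid plexus list had 0.712 with Gpr101, 0.708 with Hdc, 0.44 with Zcchc12, 0.347 with Baiap3, 0.249 with Hap1, 0.159 with AW551984 and -0.195 with Adgrg2. Control male 1, far below the rest in the choroid plexus sum (34.79 CPM), was also the lowest library in Gpr101, Hdc and Zcchc12. The r values of the lists were not computed without it, so how far they rest on this library is not known. The hypothalamic and preoptic transcription factors had median r of 0.337 to 0.59 with each of the 6 genes other than Adgrg2, and -0.13 with Adgrg2. The cortical list had median r from -0.313 (Baiap3) to -0.0729 (AW551984) with those 6 and 0.158 with Adgrg2. Genes in these lists share libraries, depth and dissection with the 7.

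In blood, a tissue that the choice of genes did not use, Hdc alone among the 7 genes had at least 1 count in every library. The study dropped a blood sample without naming it, and the test here leaves out control female 2, the library that stood apart, with 1828 counts on the cortical marker list where the other 11 libraries held 65 to 250, and 370 on the choroid plexus list where they held 0 to 16. Hdc had lowest, median and highest values of 0.591, 1.6 and 1.63 CPM in the 5 controls and 0.578, 0.896 and 1.89 CPM in the 6 nPM libraries, from 9 to 38 counts each, so the groups overlapped throughout. The log2 difference was -0.43 (SE 0.37, edgeR adjusted p = 1), and it was -0.75 without nPM male 2 and -0.25 with all 12 blood libraries. Over all 9977 genes tested in blood, 0% passed the adjusted and 3.11% the unadjusted p of 0.05.

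The other 6 genes were at or near 0 in most blood libraries. Gpr101 was at 0 counts in 10 of 12, with 7 counts in nPM male 2 and 1 in nPM male 1. Of Hap1, nPM male 2 held 95 counts and the other 10 libraries kept in the test at most 3. That library also held 42 counts of AW551984, 41 of Baiap3 and 31 of Zcchc12, while its cortical marker count of 166 was inside the range of the other libraries and its count of 90 on the hypothalamus-enriched list was the highest of the 11. No test of these 6 genes was made in blood, since each was at 0 in at least 1 library.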

How the data were processed

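Libraries of cortex and blood RNA were made after ribosomal depletion. Reads were mapped by the authors with HISAT2 (mm10) and summarised per gene with featureCounts 1.5.0-p3, and the deposited table holds raw counts with no normalization. The mean RPKM column that the authors made was not used, and 0 columns of other samples were present. Each fit kept the genes counted at least 1 time in all of its libraries. They were tested two-sided with the quasi-likelihood F test of edgeR 4.0.16 (R 4.3.3) after TMM scaling, with terms for exposure, sex and RIN, plus an exposure-by-sex term for the interaction. Adjustment was by Benjamini-Hochberg over all genes tested. SEs were the log2 difference divided by the square root of F. Correlations used log2 CPM with a prior count of 0.5 and 100000 permutations within exposure, adjusted over all pairs of the 7 genes and a tested gene. The blood test did not use control female 2. The RPKM values of the 7 genes came from TMM-scaled counts and the deposited gene lengths.

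The 7 genes, the gene lists and the tests were chosen with earlier results of these data known. The text names the 7 genes, for each list the genes with an unadjusted p under 0.005 and the 2 with the highest mean CPM, and the genes most correlated with the 7 (the 3 highest r per gene and the 10 highest mean r, at 1 CPM or more). The results of some listed or correlated genes are not reported here. Genes at other levels that it names were chosen after their values were seen. Alternatives were DESeq2 1.42.0, limma 3.58.1 voom, RLE scaling, filters of 1 count in any library and of 10 counts in every library, no RIN, a lane term, and each library left out in turn. A count of 0 allows up to 3 counts, or 0.0887 to 0.135 CPM in cortex and 0.137 to 0.221 CPM in blood, and covers counting error only. The scripts were tested on simulated data.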

Additional observations from a re-analysis of the deposited data

Results flagged for a closer look

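In blood, nPM male 2 lay far above the other nPM libraries, by a gap larger than Dixon's 95% limit, in Hap1 (5.14 CPM), AW551984 (2.27 CPM), Baiap3 (2.22 CPM), Hdc (1.89 CPM), Zcchc12 (1.68 CPM) and Gpr101 (0.379 CPM). By the same limit, control male 1 was far below the other blood controls in Hdc (0.591 CPM), and control female 3 far above them in Baiap3 (0.298 CPM, from 7 counts). In cortex, control female 1 was far above the other controls in Zcchc12 (90.2 CPM). Of 24 groups examined 9 held such a library, and 6 of the 9 are the same blood library. Blood groups of genes other than Hdc were examined only where a library held more than 3 counts. They were thus chosen for a high library, and the 5% of groups that chance gives is no measure for them. The blood library left out of the test, control female 2, held 220 counts of AW551984, 72 of Adgrg2, 27 of Hap1 and 7 of Zcchc12. In raw counts each was more than in any other blood control. In CPM this held for AW551984 (1.495) and Adgrg2 (0.4894) only. Hap1 (0.1835 CPM) and Zcchc12 (0.04758 CPM) were below control female 1, at 0.2033 CPM from 3 counts for each gene. The library totals were alike, 21174511 counts in control female 2 and 20206824 in control female 1. That order in CPM thus rests on the TMM factor of control female 2, which made its CPM values small. Causes of these values were not tested.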

How the results depend on the processing

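Of 522 values recomputed under other settings, 510 were taken as unchanged. A gene's test had to keep its side of the threshold and, where called, its direction. An nPM difference had to keep its sign and move by less than the SD within exposure. A number of calls had more leeway, so that 8 correlated pairs were taken as unchanged from 12. Some values that were not called changed sign, such as the Adgrg2 sex difference (-0.12 without RIN) and the interactions of Gpr101 (-0.11 without control male 1) and Zcchc12 (0.09 without RIN). The median nPM log2 difference of the 7 genes was 0.488 to 0.568 with 1 library left out and 0.503 to 0.534 in the other settings. The number of the 7 genes called for sex at an adjusted p of 0.05 stayed at 0 with each library left out. It went from 0 to 1 with DESeq2 (Baiap3, adjusted p 0.0361, among 26 genes). With genes of at least 1 count in any library it went to 5 (edgeR adjusted p of 6.12e-10 to 0.0434, among 165 genes or 0.508% of those tested). Under that filter the Hap1 log2 value was -0.471, against -0.475 in the main fit, where its edgeR adjusted p was 0.696. Interaction calls over all genes went from 0 to 379 under the same filter. Why the filter lowered the p-values was not tested. Listed genes past an unadjusted p of 0.005 went from 6 to 10 of 157 with DESeq2, while the share of all genes went from 0.614% to 0.858%. With genes of at least 1 count in any library they were 24 of 195, where 1.62% of all genes were called. With 1 library left out they ran from 2 (without nPM male 2, 0.391% of all genes) to 9 (without nPM male 1, 0.674%). Correlated pairs of the 7 ran from 6 (without nPM female 3) to 12 with 1 library left out, and from 8 (centred on sex too) to 14 (RIN taken out) in the other settings. The cause was not tested. No paired analysis was possible because replicate numbers only follow accession order and the labels pair no samples. In blood, control females were not left out in turn, since 2 remained, and the filter of 10 counts dropped Hdc. Depth limits Hdc (24 to 70 counts per cortex library) most, and 3 libraries per sex and exposure limit the interaction.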
